A study of Rattus norvegicus with 6 samples.

Results

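The genes described here are 36 genes of macrophages and dendritic cells, the phagocytes of innate immunity, taken as a named list and read from expression arrays of rat metrial gland. The array's probe sets named 14217 genes in all. Of the 36, 32 had a probe set annotated to that gene alone, and the brightest of these, by its mean on the 6 arrays, stood for the gene. Spi1, Msr1, Marco and Siglec1 were not analysed here. The comparison used 6 arrays. The ambient group was 3 arrays from pregnant rats kept at 21% oxygen, and the hypoxia group was 3 arrays from pregnant rats kept at 10.5% oxygen from gestation day 6.5 to day 13.5, when the tissue was taken from both groups. The labels used here name no strain, age or pooling of animals. They also do not state that the 3 arrays of a group hold different rats, so each p-value measures only how these samples spread, and that spread may be technical.

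The metrial gland lies in the uterine wall behind the placenta and is a mixed tissue, in which natural killer cells, vessels, decidual stroma and invading trophoblast lie together. Macrophages depend on the growth factor Csf1 and its receptor Csf1r. They take up dying cells and debris through scavenger and lectin receptors, bind antibody through Fc receptors that signal through adapters carrying an ITAM motif, make complement C1q, and break down cargo in lysosomes. Dendritic cells share much of this equipment and add antigen presentation through MHC class II. Several of these genes, among them Fcer1g, Tyrobp, Itgb2 and Laptm5, are also expressed by natural killer cells, the main leukocyte of the metrial gland.

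Values are log2 expression, 1 per probe set and array, so a difference of 1 is a doubling, and levels of different probe sets are not compared. Array medians lay between 6.44 and 6.48. The highest of 27 bacterial control probe sets, a guide to background, read at least 4.81 and at most 5.0 per array. Granule genes of natural killer cells marked the tissue on every array, with Prf1 between 13.32 and 13.79 and Gzmb between 14.16 and 14.53. Macrophage markers were present too. Cd68, Csf1r and all 3 C1q chains stood above every bacterial control on all 6 arrays. Of the dendritic cell genes, Itgax, which codes for CD11c, stood above it too. Of 19 further dendritic cell and costimulation genes on the array, which are not members, 15 were bright enough to be tested, RT1-Da, Cd74 and Flt3 among them. Clec9a and Batf3, markers of cross-presenting dendritic cells, were left out for a low mean, and Cd80 and Cd86 stood at bacterial control level on all 6 arrays.

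Most of the tested myeloid genes read lower under low oxygen, by small amounts, and 1 read much higher. The test left out the 40% of probe sets with the lowest mean, which removed 6 of the 32 genes (Clec4f, Cybb, Itgam, Cx3cr1, Ccr2 and Ms4a7) and kept 26. In these 26, the difference (hypoxia minus ambient) was below 0 in 22, or 84.6%, against 49.2% of all 18625 probe sets tested. The median difference was -0.24, against 0.00 over all tested probe sets. At a limma adjusted p under 0.05, 4 of the 26 fell (15.4%), where 1.97% of all tested probe sets did, and 1 rose (3.85%), where 4.02% did. The falls were those of Fcgr2b, Fcer1g, Laptm5 and Csf1, and the rise was that of Cd52. The shares in this paragraph are descriptions, since the members were chosen with earlier results of these data known. Each member is also 1 probe set per gene, where the background holds every tested probe set. The groups did not overlap in 11 of the 26 with hypoxia lower (42.3%, against 14.1% of all tested probe sets) and in 2 with hypoxia higher (7.69%, against 15.8%), and 29.9% of all tested probe sets were apart in either direction. At an unadjusted p under 0.05 there were 13 lower and 2 higher members, where 10.6% and 13.1% of all tested probe sets were lower and higher. The 13 became 7 when ambient replicate 2 or 3 was left out and 6 when hypoxia replicate 2 was. Cd52 and Ncf1 reached the filter's cutoff of 5.74 in 1 group only, so their being tested already favoured a difference. Without them, 24 genes had 4 falls and no rise by limma, 12 lower and 1 higher at an unadjusted p under 0.05, and 10 lower and 1 higher with groups apart. In bulk tissue, fewer cells of a type and less RNA per cell cannot be told apart. The count of 4 falls was 3 without ambient replicate 1, 1 without ambient replicate 2, 2 without ambient replicate 3, 1 without hypoxia replicate 1, 2 without hypoxia replicate 2 and 2 without hypoxia replicate 3. The calls over all probe sets, 1116 (5.99%), went down to 536, 344 and 267 when ambient replicates 1, 2 and 3 were left out in turn, and to 450 and 486 for hypoxia replicates 1 and 2.

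**Figure D1:**
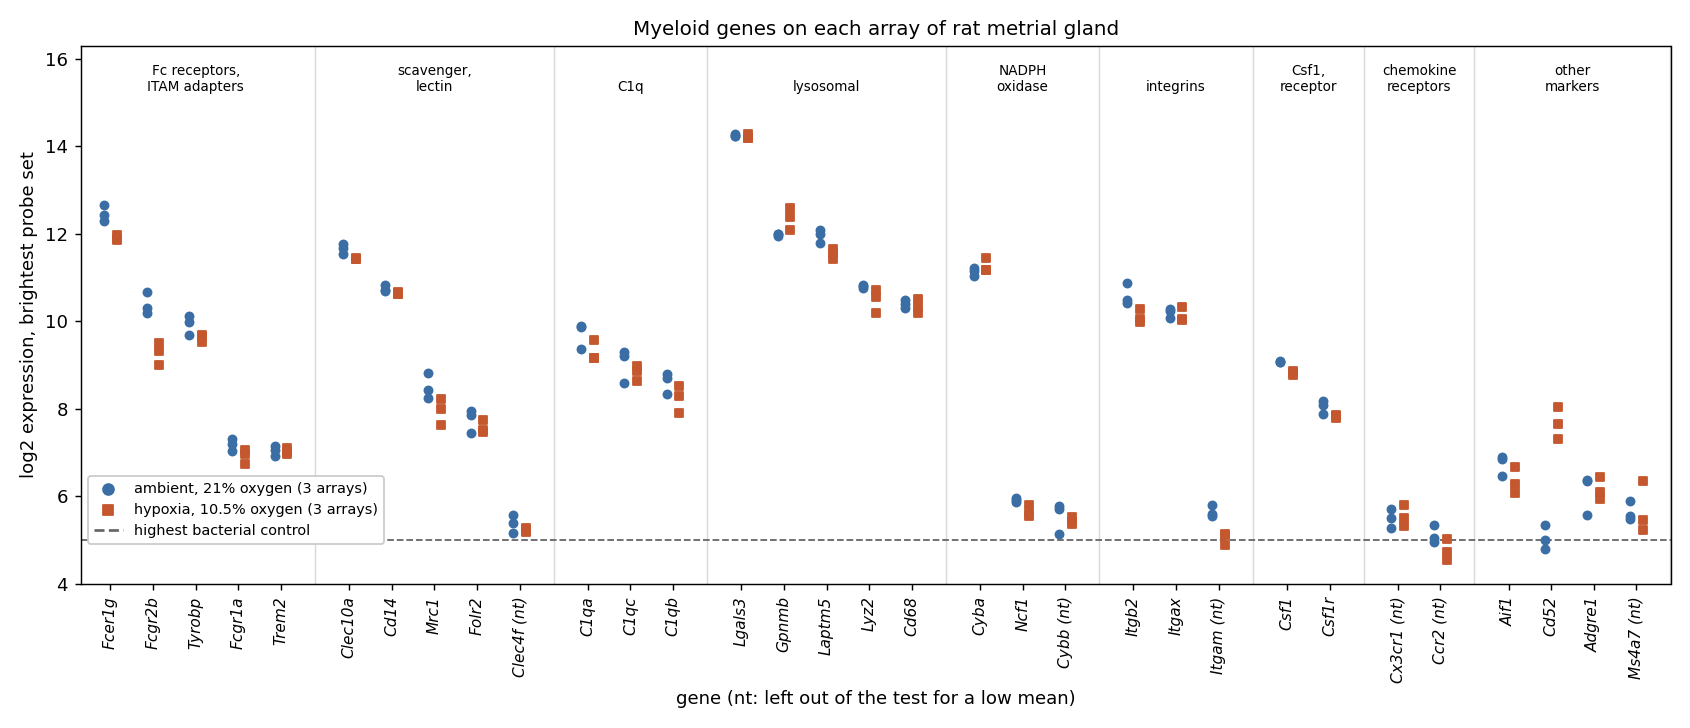
Log2 expression of the 32 myeloid genes on each array, at the brightest probe set of each gene, with ambient arrays as circles and hypoxia arrays as squares. The dashed line is the highest bacterial control value (5.0). Most pairs lie close together, the Fc receptor Fcgr2b is lower in hypoxia by 1.10, and Cd52 goes from the dashed line in ambient to well above it in hypoxia.

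**Figure D2:**
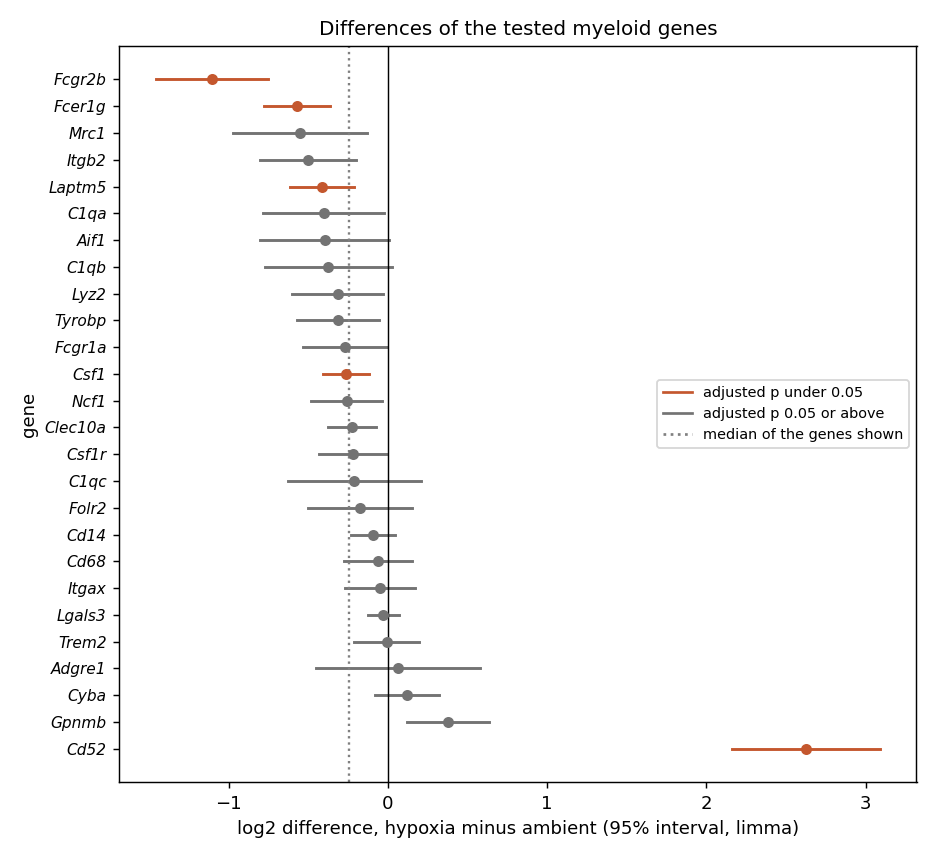
Log2 difference (hypoxia minus ambient) of the 26 tested genes with its 95% interval from limma, ordered by size. The 4 falls and the rise of Cd52 that passed an adjusted p of 0.05 are coloured, and the dotted line at -0.24 is the median of the genes shown.

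The list's growth factor was lower in hypoxia, with its receptor in the same direction. Csf1, which drives survival and differentiation of macrophages, read 9.10, 9.08 and 9.07 on ambient replicates 1 to 3 and 8.87, 8.78 and 8.82 on hypoxia replicates 1 to 3. Every hypoxia array was below every ambient array. It fell by 0.26 on the log2 scale (SE 0.06), which is 1.20-fold (limma adjusted p = 0.0496). This call was lost without any 1 array (adjusted p from 0.0849 to 0.139), with no filter (0.0689) and with no variance trend (0.0611). The other 3 probe sets of Csf1 differed by -0.03, -0.07 and -0.18 and did not pass, and the mean over all 4 gave -0.14 (adjusted p = 0.341). Csf1r, the receptor tyrosine kinase for Csf1 and Il34, read 7.88, 8.17 and 8.09 in ambient and 7.86, 7.80 and 7.83 in hypoxia. The groups did not overlap, with a difference of -0.22 (SE 0.09) that did not pass (adjusted p = 0.193).

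The chemokine receptors that bring monocytes into tissue were near background. Cx3cr1, the fractalkine receptor, read 5.72, 5.27 and 5.51 in ambient and 5.79, 5.31 and 5.51 in hypoxia, and these overlapped. Ccr2, the receptor for Ccl2, read 5.34, 5.04 and 4.95 in ambient and 4.72, 4.53 and 5.02 in hypoxia, where 1 of 3 arrays stood above every bacterial control. Neither was tested.

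Fc receptors and their adapters included Fcgr2b, which had the largest fall of the 26 tested genes. Of 5 tested, 2 fell, where 1.97% of all tested probe sets did. All 5 differences were below 0, where 49.2% of all tested probe sets were, with a median of -0.31. Fcgr2b, the inhibitory receptor for IgG, read 10.66, 10.30 and 10.18 in ambient and 9.33, 9.01 and 9.49 in hypoxia. The gap between the lowest ambient and the highest hypoxia array was wider than the range within either group. Mean levels were 10.38 ± 0.25 in ambient and 9.28 ± 0.25 in hypoxia (SD, n = 3 each). Fcgr2b fell by 1.10 (SE 0.15), which is 2.15-fold (limma adjusted p = 0.0109). The call held under all 13 alternatives, with adjusted p from 0.0080 to 0.0393. Its single probe set can bind transcripts of close paralogs among the low-affinity Fc receptors, so the value is uncertain as that of 1 gene. Fcgr3a, another member of that family, had 1 hypoxia array apart from the rest, with replicate 1 at 8.03 and the other two at 5.77 and 5.94, and differed by 0.17 (SE 0.53, adjusted p = 0.873).

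Fcer1g, the ITAM adapter shared by Fc receptors of macrophages, mast cells and natural killer cells, read 12.30, 12.44 and 12.67 in ambient and 11.87, 11.98 and 11.86 in hypoxia. The groups were apart. It fell by 0.57 (SE 0.09), or 1.48-fold (limma adjusted p = 0.0156). Leaving out ambient replicate 2 (0.0526) or hypoxia replicate 1 (0.0530) ended the call. Tyrobp, the adapter of Trem2 and of activating receptors of natural killer cells, differed by -0.31 (SE 0.11, adjusted p = 0.142). Its groups met, with 9.69 on both ambient replicate 2 and hypoxia replicate 1. Fcgr1a, the high-affinity IgG receptor, differed by -0.27 (SE 0.12, adjusted p = 0.208) and overlapped. Trem2, a lipid-sensing receptor of macrophages, read 7.04 ± 0.11 and 7.03 ± 0.06, which differ by -0.01 (95% interval -0.21 to 0.20).

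Scavenger and lectin receptors had no call by limma among 4 tested. At an unadjusted p under 0.05 there were 2, where 10.6% of all tested probe sets were lower. All 4 differences were below 0, where 49.2% of all tested probe sets were. Clec10a, a lectin for galactose and N-acetylgalactosamine found on dendritic cells and macrophages, read 11.78, 11.55 and 11.69 in ambient and 11.43, 11.46 and 11.44 in hypoxia. The groups were apart, by a difference of -0.23 (SE 0.07, adjusted p = 0.0831). Mrc1, the mannose receptor, read 8.25, 8.82 and 8.44 in ambient and 8.23, 7.63 and 7.99 in hypoxia. It had the widest difference of the 4, -0.55 (SE 0.18, adjusted p = 0.116), with hypoxia replicate 1 just under ambient replicate 1. Folr2, a folate receptor of tissue macrophages, differed by -0.17 (SE 0.14) with overlapping groups. Cd14, the co-receptor for bacterial lipopolysaccharide, differed by -0.09 (SE 0.06) with groups that did not overlap. Clec4f, known from liver Kupffer cells, read 5.16 to 5.58 in ambient and 5.19 to 5.28 in hypoxia and was not tested.

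The 3 chains of complement C1q, which macrophages make and which bind immune complexes and dying cells, were all lower on average in hypoxia, and none passed by limma. At an unadjusted p under 0.05, where 10.6% of all tested probe sets were lower, there was 1, C1qa. It read 9.37, 9.89 and 9.86 in ambient and 9.57, 9.17 and 9.16 in hypoxia. The groups overlapped through 2 arrays, a low ambient replicate 1 and a high hypoxia replicate 1. Its difference was -0.40 (SE 0.16, adjusted p = 0.188), and those of C1qb and C1qc were -0.37 (SE 0.17, adjusted p = 0.24) and -0.21 (SE 0.18, adjusted p = 0.529). C1qb and C1qc were likewise lowest among ambient arrays on replicate 1 (8.33 and 8.59) and highest among hypoxia arrays on replicate 1 (8.52 and 8.97). Without ambient replicate 1 the differences of the chains were -0.57, -0.51 and -0.43 in the order C1qa, C1qb and C1qc, and still did not pass (adjusted p = 0.0770, 0.164 and 0.0996). Without hypoxia replicate 1 all 3 were wider as well, at -0.51 for C1qb. Leaving out some of the other arrays made them smaller, down to -0.31 for C1qa without ambient replicate 2 and -0.21 for C1qb without hypoxia replicate 2. C1qc differed by -0.12 and -0.08 when ambient replicates 2 and 3 were left out in turn, and by -0.11 when hypoxia replicate 2 was.

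Some other macrophage markers had the same lowest ambient array, and others did not. Mrc1, Folr2, Csf1r, Aif1 and Adgre1 were also lowest in ambient on replicate 1. In all, 16 of the 26 tested genes were, where 40.4% of all tested probe sets were. Ambient replicate 1 was instead the highest of its group in 6 of the 26, Clec10a, Cd14 and Trem2 among them, against 30.1% of all tested probe sets. Cd163, a macrophage receptor outside the list, was lowest in ambient on replicate 3 (7.07). Hypoxia replicate 2 was the lowest of its group in 17 of the 26, against 36.5% of all tested probe sets. Adgre1, which codes for an adhesion receptor widely used to mark rodent macrophages, was furthest out, with ambient replicate 1 at 5.58 and the other ambient arrays at 6.36 and 6.35. Its hypoxia arrays read 6.44, 5.95 and 6.10. Its difference was 0.06 (SE 0.22, adjusted p = 0.892) with all arrays and -0.20 without ambient replicate 1. Aif1, the cytoplasmic protein IBA1, read 6.46, 6.91 and 6.84 in ambient and 6.68, 6.07 and 6.27 in hypoxia. The groups overlapped, with a difference of -0.40 (SE 0.18, adjusted p = 0.221). Ms4a7, a membrane protein of macrophages, read 5.55, 5.48 and 5.90 in ambient and 6.35, 5.23 and 5.45 in hypoxia and was not tested.

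**Figure D3:**
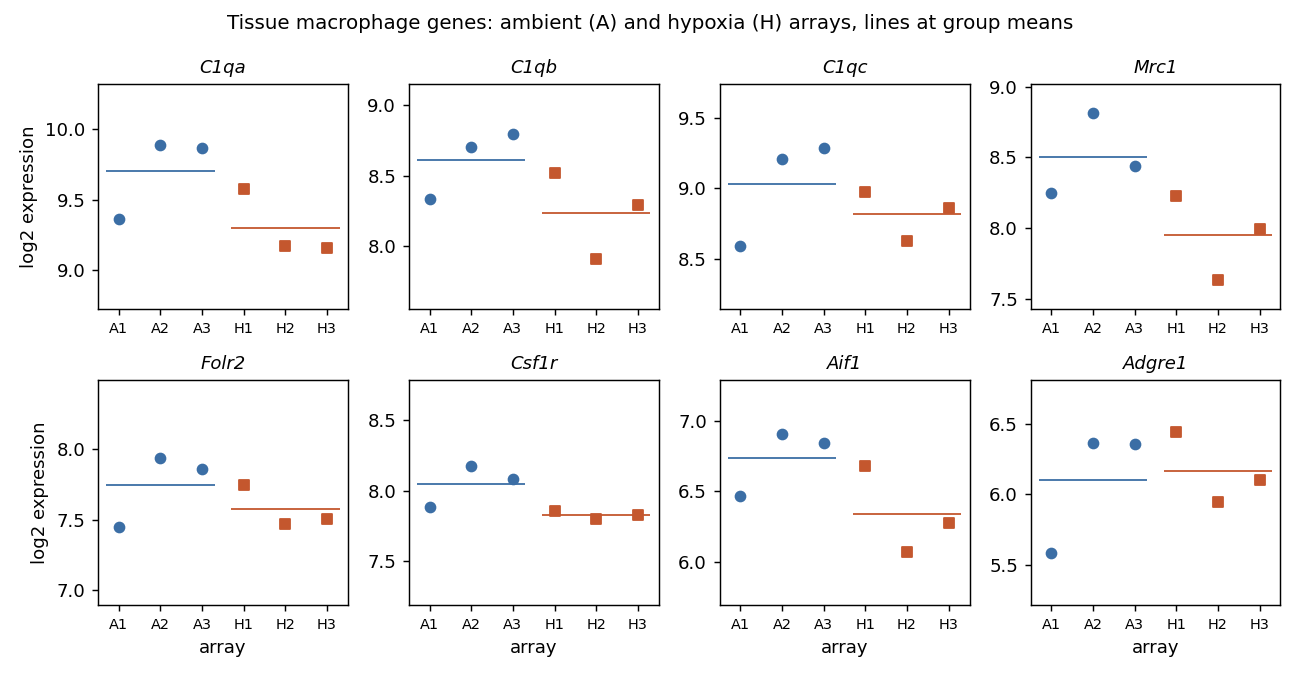
Log2 expression of 8 macrophage genes on ambient arrays 1 to 3 (A1 to A3) and hypoxia arrays 1 to 3 (H1 to H3), with lines at group means and the same axis length in every panel. The genes were chosen after their values were seen. Ambient replicate 1 is the lowest ambient array in all 8 panels.

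Lysosomal and phagocytic genes did not move as one. Laptm5, a lysosomal membrane protein of blood cells that limits antigen receptor signalling, read 11.80, 12.0 and 12.09 in ambient and 11.44, 11.66 and 11.56 in hypoxia. The groups were apart. It fell by 0.41 (SE 0.09), or 1.33-fold (limma adjusted p = 0.0384), and its second probe set fell by 0.45 (SE 0.10, adjusted p = 0.0390). Leaving out any 1 array other than ambient replicate 1 ended the call (adjusted p = 0.0550 to 0.124), as did a fit with no variance trend (0.0605). Lyz2, the bactericidal lysozyme of macrophages and neutrophils, was lower on all hypoxia arrays by a difference of -0.32 (SE 0.12, adjusted p = 0.171), and its probe set may also bind a close paralog. Gpnmb, a glycoprotein of lysosomes in lipid-laden macrophages, went the other way, with 11.96, 11.99 and 12.0 in ambient and 12.40, 12.09 and 12.59 in hypoxia. All 3 hypoxia arrays lay above the ambient ones, and the difference of 0.38 (SE 0.11) did not pass (adjusted p = 0.0905). It passed without hypoxia replicate 2, at 0.51 (adjusted p = 0.0167). Lgals3, a lectin of macrophages and of epithelial and trophoblast cells, read 14.24, 14.23 and 14.29 in ambient and 14.20, 14.19 and 14.28 in hypoxia. The overlap was nearly complete, at -0.03 (95% interval -0.12 to 0.07) and close to the highest values of the arrays, which were 14.8 to 14.9. Cd68, the lysosomal marker most used to count macrophages, read 10.32, 10.41 and 10.48 in ambient and 10.32, 10.52 and 10.18 in hypoxia. It differed by -0.06 (95% interval -0.27 to 0.15, adjusted p = 0.725).

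The oxidase that makes superoxide in phagocytes gave no call by limma among its 2 tested subunits. At an unadjusted p under 0.05, where 10.6% of all tested probe sets were lower, there was 1, Ncf1. Ncf1, the cytosolic organiser p47phox, read 5.86, 5.91 and 5.95 in ambient and 5.54, 5.6 and 5.80 in hypoxia. The groups were apart and low, with a difference of -0.26 (SE 0.10, adjusted p = 0.155), and the hypoxia mean of 5.65 was under the filter's cutoff. Cyba, the membrane subunit p22phox, which many cell types express, read 11.16, 11.05 and 11.23 in ambient and 11.17, 11.18 and 11.44 in hypoxia, and these overlapped. Cybb, the catalytic subunit of phagocytes, read 5.13 to 5.77 in ambient and 5.37 to 5.53 in hypoxia and was not tested.

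Among the leukocyte integrins, the shared beta chain and the alpha chain of dendritic cells differed in size of change. Itgb2, the beta 2 chain of all leukocyte integrins, read 10.43, 10.49 and 10.88 in ambient and 10.05, 9.98 and 10.28 in hypoxia. The groups were apart, and the difference of -0.50 (SE 0.13) did not pass (adjusted p = 0.0648). Itgax read 10.08, 10.23 and 10.27 in ambient and 10.04, 10.06 and 10.34 in hypoxia. These overlapped and differed by -0.05 (95% interval -0.27 to 0.17). Itgam, the CD11b chain of monocytes, macrophages and natural killer cells, read 5.55, 5.59 and 5.80 in ambient and 4.88, 5.11 and 5.14 in hypoxia, where 2 of 3 arrays stood above every bacterial control. It was left out for its low mean. With no filter its difference of -0.60 (SE 0.11) passed, with an adjusted p of 0.0246. The difference between any pair of these integrins was not tested.

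Cd52, a small glycoprotein anchored to the surface of lymphocytes, monocytes and dendritic cells, was the only riser past the threshold among the 26. It read 5.35, 4.79 and 4.99 on ambient replicates 1 to 3 and 7.66, 8.04 and 7.32 on hypoxia replicates 1 to 3. In ambient it was at the edge of background, above every bacterial control on 2 of 3 arrays, and in hypoxia it was clear of it on all 3. It rose by 2.63 on these measured values (SE 0.20, limma adjusted p = 0.0022). Its ambient mean of 5.04 lay under the filter's cutoff and its hypoxia mean of 7.67 above it, so it was tested through its hypoxia arrays alone, and with ambient values this near background the size of the rise is uncertain. The adjusted p stayed between 0.0011 and 0.0156 under 12 alternatives. The filter that leaves out 60% of probe sets left the gene out.

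Promoter sequences were available for 23 of the 36 genes in the RefSeq table of build GRCr8. Those of 3 are printed because they belong to the 2 called genes with an entry and to Gpnmb, the other gene that read higher on every hypoxia array. Each is the 250 bases before the gene's start, 5′ to 3′ on the gene's strand. Capitals mark matches on either strand to GAGGAA, a core bound by the myeloid factor PU.1 that Spi1 encodes, or to ACGTG or GCGTG, the core of the hypoxia response element.
Cd52 (chr5:151605097-151605346, - strand): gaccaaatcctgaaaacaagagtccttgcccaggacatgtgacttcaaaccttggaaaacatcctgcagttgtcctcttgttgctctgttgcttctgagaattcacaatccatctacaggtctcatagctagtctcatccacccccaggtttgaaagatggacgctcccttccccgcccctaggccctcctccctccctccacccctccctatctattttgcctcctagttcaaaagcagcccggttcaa
Laptm5 (chr5:148371630-148371879, + strand): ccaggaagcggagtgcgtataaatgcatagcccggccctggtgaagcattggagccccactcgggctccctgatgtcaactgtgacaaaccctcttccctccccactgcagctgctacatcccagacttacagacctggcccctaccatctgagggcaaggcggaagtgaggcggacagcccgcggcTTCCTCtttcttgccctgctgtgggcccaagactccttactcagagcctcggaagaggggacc
Gpnmb (chr4:79340878-79341127, + strand): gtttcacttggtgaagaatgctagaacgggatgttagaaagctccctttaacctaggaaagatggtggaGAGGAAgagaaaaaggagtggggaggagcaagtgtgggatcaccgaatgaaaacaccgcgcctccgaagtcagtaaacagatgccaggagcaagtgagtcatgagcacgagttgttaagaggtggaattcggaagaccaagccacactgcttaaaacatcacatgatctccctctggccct

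Gpnmb held 1 match to GAGGAA, 181 bases before the start, and Laptm5 held 1 on the opposite strand, 63 bases before the start. The Cd52 window held no match to any of these letters. Of the 23 windows, 13 held GAGGAA, where 23.3% of all 33469 windows of this length did. The hypoxia response core was in 3 (Cybb, Csf1r and Ccr2), where 36.7% of all windows held it. Members count 1 window per gene, whereas these shares count every window. Some of the 23 genes were not analysed on the arrays (Marco) or not tested (Cybb and Ccr2 among them). No match to one motif overlapped a match to the other in these 23. A match is a description of the letters only.

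Other genes of the same pathways, from lists that took in no member, showed where the small falls were shared and where they were not. For the counts in these lists, the shares over all tested probe sets were 1.97% lower and 4.02% higher by limma. No list was tested against these shares. Among 12 myeloid growth factor and transcription factor genes tested, 1 passed at its brightest probe set. This was Irf8, which directs monocyte and dendritic cell development and is also used by lymphocytes, and it read 10.95, 11.14 and 11.40 in ambient and 10.42, 10.18 and 10.67 in hypoxia. It fell by 0.74 (SE 0.14, adjusted p = 0.0299), a call lost without ambient replicates 2 or 3 or hypoxia replicates 1 or 2 (up to 0.0935). Probe sets of Cebpa, a myeloid transcription factor, disagreed. The brightest differed by 0.32 and did not pass (adjusted p = 0.0860), while 2 of its other 4 rose, by 0.52 (adjusted p = 0.0366) and 0.49 (adjusted p = 0.0212). In the other Fc receptor and ITAM signalling list, limma made no call among 10, and the median was -0.30. At an unadjusted p under 0.05, 5 were lower, where 10.6% of all tested probe sets were. The kinase Fgr (-0.50, adjusted p = 0.0585) and the inhibitory receptor Cd300a (-0.49, adjusted p = 0.0656) had the smallest p. Fgr passed with quantile normalization (0.0492), and with the replicate block both passed (0.0240 and 0.0275). Rac2, the GTPase that activates the phagocyte oxidase, fell by 0.59 (SE 0.11, adjusted p = 0.0256) and was the single call among 4 oxidase partners and complement receptors. Its call was lost without ambient replicate 2 or hypoxia replicates 1 or 2 (up to 0.0747).

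The second scavenger receptor list held changes in both directions. Of 12 tested, 2 rose and 1 fell, and 9 differences were above 0, where 50.8% of all tested probe sets were. The list's mean level was higher on every hypoxia array (9.47 to 9.49 in ambient and 9.51 to 9.64 in hypoxia). Cd163, the macrophage receptor for hemoglobin bound to haptoglobin, read 7.10, 7.28 and 7.07 in ambient and 6.15, 6.01 and 6.15 in hypoxia. The gap between groups was several times the range within them. It fell by 1.05 (SE 0.09), or 2.06-fold (limma adjusted p = 0.0034), and passed under all 12 alternatives that tested it. Cd36, a receptor for fatty acids and oxidised lipoproteins on macrophages and endothelium, rose by 0.81 (SE 0.15, adjusted p = 0.0256), a call lost without ambient replicates 1 or 2 or hypoxia replicates 1 or 2 (up to 0.0821). Mfge8, which bridges dying cells to phagocytes, rose by 0.60 (SE 0.09, adjusted p = 0.0145), a call lost without ambient replicates 2 or 3 or hypoxia replicate 1 (up to 0.06).

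Dendritic cell and antigen presentation genes had 15 tested, of which 1 rose and 2 fell, with a median of -0.15. RT1-Da, the class II alpha chain, read 10.01, 9.87 and 9.94 in ambient and 9.53, 9.43 and 9.52 in hypoxia. It fell by 0.45 (SE 0.06, adjusted p = 0.0117). Cd74, the invariant chain of class II, fell by 0.37 (SE 0.07, adjusted p = 0.0230), a call lost without ambient replicates 2 or 3 or hypoxia replicates 1 or 2 (up to 0.0882). Cd40, a costimulatory receptor also found on endothelium, rose by 0.52 (SE 0.11, adjusted p = 0.0417), a call lost without any 1 array (up to 0.134). Probe sets of RT1-Ba disagreed, since the brightest differed by -0.17 and another by -0.82 (adjusted p = 0.0034). Those of RT1-Bb disagreed as well, with 0.28 at the brightest (adjusted p = 0.744) and a fall of -0.88 at the other (adjusted p = 0.0494).

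Lysosomal enzymes outside the list changed in both directions. Of 17 tested, 2 rose and 1 fell, and 10 differences were above 0, where 50.8% of all tested probe sets were. At an unadjusted p under 0.05 by limma, 7 were higher and 3 lower, where 13.1% and 10.6% of all tested probe sets were. The median was 0.10, and the list's mean level overlapped between groups (11.87 to 11.89 in ambient and 11.88 to 11.94 in hypoxia). Cathepsin B (Ctsb), a broad lysosomal protease, read 13.58, 13.49 and 13.55 in ambient and 13.97, 13.85 and 13.95 in hypoxia. It rose by 0.38 (SE 0.05, adjusted p = 0.0087) and passed under all 13 alternatives. Lipa, the lysosomal acid lipase, rose by 0.43 (SE 0.07, adjusted p = 0.0192), a call lost without ambient replicates 2 or 3 or hypoxia replicate 2 (up to 0.0788). Cathepsin C (Ctsc), which activates granule proteases of killer cells and myeloid cells, fell by 0.59 (SE 0.09, adjusted p = 0.0158), a call lost without ambient replicates 2 or 3 (up to 0.0649), with -0.37 and no call at its second probe set. Among activation genes 1 of 9 passed. Il1b, the inflammatory cytokine, read 6.56, 6.55 and 6.65 in ambient and 7.16, 7.19 and 7.10 in hypoxia, and rose by 0.57 (SE 0.08, adjusted p = 0.0106). Of 5 monocyte chemoattractants 1 passed, Ccl3, which rose by 0.53 (SE 0.10, adjusted p = 0.0297), a call lost without any 1 array but hypoxia replicate 1 (up to 0.0788).

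**Figure D4:**
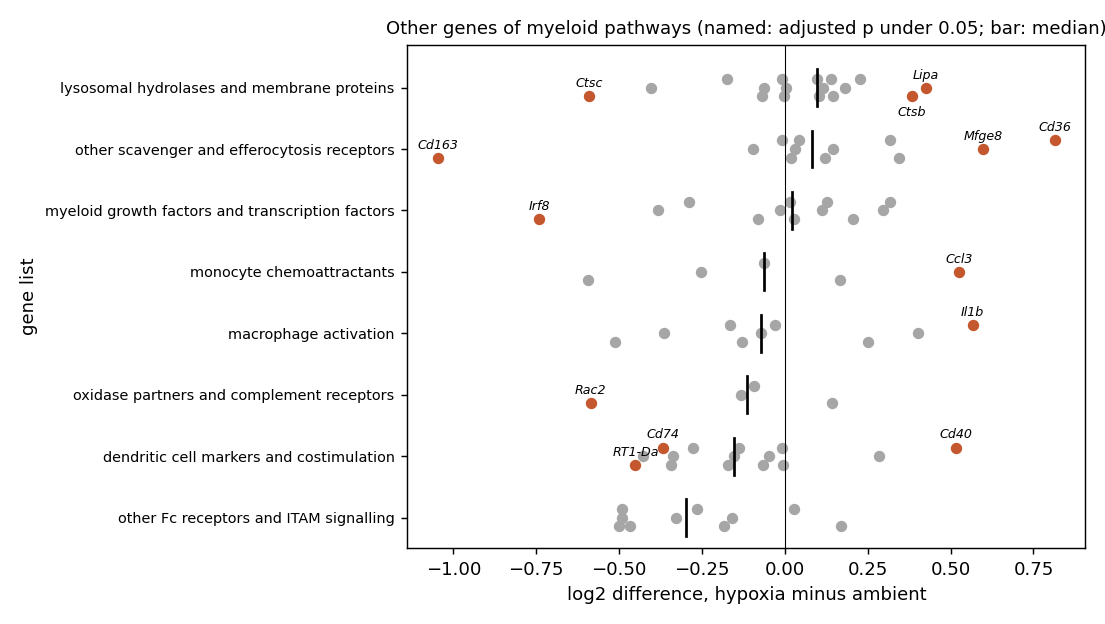
Log2 difference (hypoxia minus ambient) of each tested gene in 8 lists of related myeloid genes, with named points past an adjusted p of 0.05 and a bar at each list's median. Medians run from -0.30 for Fc receptor signalling to 0.10 for lysosomal hydrolases.

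Markers of other cell types moved between the same groups. Over all tested probe sets the shares were again 1.97% lower and 4.02% higher by limma. Of 9 natural killer cell markers tested, 3 fell (Nkg7, Eomes and Il2rb) and 2 differences were above 0, those of Klrd1 (0.52, adjusted p = 0.192) and Gzmm (0.13, adjusted p = 0.726). The mean level of the list was 10.15 on every ambient array and 9.85 to 10.12 in hypoxia. Of 6 T and B cell markers, 3 fell (Cd8a, Cd3g and Lck), with mean levels of 7.67 to 8.07 in ambient and 6.99 to 7.43 in hypoxia. Of 10 trophoblast markers 9 rose, with the smallest p for Prl7a3, Plac1, Krt7 and Krt8 and mean levels of 7.01 to 8.01 and 9.21 to 9.50. Of 7 endothelial markers 5 rose, Vwf, Tie1, Cldn5 and Egfl7 among them, with mean levels of 8.55 to 8.72 and 9.13 to 9.22. Of 7 red cell markers on the array 4 were tested, and 3 rose (Hbb, Alas2 and Ahsp). Mean levels of the 4 were 7.85 to 8.27 and 9.09 to 9.72. Epithelial markers stood at 7.31 to 7.72 and 6.45 to 7.2, with 2 of 5 lower (Epcam and Cdh1). Decidual stroma markers stood at 10.14 to 10.38 and 10.61 to 10.93, with 2 of 8 higher (Cryab and Bmp2). Ahsp and Bmp2 had ambient means of 5.61 and 5.67, under the filter's cutoff of 5.74, and hypoxia means above it. Their being tested already favoured a rise. Of 7 neutrophil markers on the array 3 were tested, with mean levels that overlapped (7.59 to 8.09 and 7.80 to 8.60). S100a8 and S100a9 rose, whereas Lcn2 was lower on every hypoxia array by a difference of -1.93 (SE 0.65) that did not pass (adjusted p = 0.125). Mmp8, Camp, Cxcr2 and Csf3r stood at bacterial control level on all 6 arrays. Not every marker call named as risen or fallen held when 1 array or another was left out. Those of Nkg7, Eomes, Il2rb, Cd8a, Cd3g, Lck, Krt8, Cldn5, Egfl7, Epcam, Cdh1 and Bmp2 were lost, with adjusted p up to 0.154. The trophoblast and endothelial calls counted but not named were not checked in this way. The part of these shifts in the myeloid differences, those of Cd52, Fcer1g, Laptm5, Irf8 and Rac2 among them, was not tested. Beta-actin gave a 3' minus 5' signal, which grows as RNA degrades, of 0.50 ± 0.07 for ambient and 0.67 ± 0.10 for hypoxia arrays. A two-sided exact permutation test gave p = 0.1, which is as low as 3 arrays a group allow, and its part was not tested either.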

How the data were processed

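RNA of 6 rat metrial gland samples was measured on a single-channel Affymetrix array, per the labels' protocols. The deposited table holds log2 values, 1 per probe set and array. The scale was read from the values. MAS5 and Affymetrix Expression Console are named in the submitters' processing notes, with no role or version. How background, summarization and scaling were handled is not given in the sources used here.

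Of 31099 probe sets, 57 controls were left out, and then the dimmest 40% by mean (12417), which kept 18625. Genes came from the platform annotation, with 20826 probe sets of 1 symbol, 436 of several and 9780 of none. Gene identifiers of 20758 of the 20826 were found in the RefSeq table of GRCr8, and no symbol changed. Groups were compared in R 4.3.3 with limma 3.58.1 (lmFit, eBayes with a mean-variance trend, group as the only term), in a two-sided test adjusted by Benjamini-Hochberg over all 18625. In data simulated for this comparison on 18625 probe sets, the fit recovered a share of 0.900 of 200 changed by 1 on the log2 scale. Among the tested members only Fcgr2b and Cd52 differed by 1 or more, and recovery of smaller changes was not simulated. Precision is limited by the number of arrays.

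The members and lists were chosen with earlier results of these data known. Named genes are all members and, of each other list, up to 4 past the threshold by smallest p, or 2 where none passed. Fcgr3a, RT1-Ba, RT1-Bb, Cebpa, Flt3, Lcn2, Klrd1, Gzmm, Clec9a, Batf3, Cd80, Cd86, Mmp8, Camp, Cxcr2, Csf3r, Prf1 and Gzmb were named outside this rule. The alternatives were no filter, a 60% filter, quantile normalization, median centring, no variance trend, the replicate number as a block, each array left out in turn and the mean of all kept probe sets of a gene.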

Additional observations from a re-analysis of the deposited data

How the results depend on the processing

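The median difference of the tested genes stayed below 0 under all 13 alternatives, between -0.293 and -0.190 when 1 array was dropped. The count of falls was 2 with no variance trend and 1 to 3 with 1 array left out. The count of rises was 0 with the 60% filter, which left Cd52 out of the test (11 lower and 1 higher at an unadjusted p under 0.05 by limma among the 20 it kept), and 1 to 2 with 1 array left out. Calls over all probe sets ran from 267 to 1029 with 1 array left out. With quantile normalization 55.3% of the calls were higher, against 67.1% as reported. Some differences near 0 changed sign with 1 array left out, those of Trem2 (-0.068 to 0.044), Adgre1 (-0.196 to 0.194), Itgax (-0.143 to 0.0081) and Cd68 (-0.151 to 0.016). With no filter the 4 falls were those of Fcgr2b, Fcer1g, Laptm5 and Itgam. Whether the replicate numbers in the titles pair the arrays is not known. Deviations of same-numbered arrays correlated by 0.01, 0.07 and 0.07, and those of other pairs across the groups by -0.14 to 0.08. Not every array correlated best with its own number. With 3 arrays a group this cannot decide whether the arrays are paired, and the main fit did not pair them. With the replicate block there were 1317 calls, 4 falls and 1 rise, with Itgb2 past the threshold (adjusted p = 0.0130) and Csf1 not (0.0837), and with Fgr (0.0240) and Cd300a (0.0275) past it too. Where a call was lost, the cause was not tested.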
